A study of Mus musculus with 46 samples.

Results

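Nanog, Dppa3, Gdf3, Apobec1 and Slc2a3 are neighbours on mouse chromosome 6, and their histone H3.3, H3K4me3 and H3K36me3 peaks were followed through 30 ChIP-Seq libraries. The genes were chosen by position: a peak belonged to a gene when it overlapped the stretch from 1 kb before the gene to 1 kb after it in the GENCODE vM1 annotation of build mm9, and peaks between the genes were kept as intergenic. They are 5 of 22380 protein-coding genes. The whole locus ran from chr6:122526810-122752658 (225.8 kb) and held 418 peaks over all libraries, of which 295 were H3.3, 92 were H3K4me3 and 31 were H3K36me3.

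The mouse embryonic fibroblasts (MEFs) used for reprogramming carry an IRES-EGFP cassette behind the stop codon of Oct4, so D0 and every population made from these cells share it. They were infected with pMXs retroviruses for Oct4, Sox2, Klf4 and c-Myc (OSKM) and sampled before infection (D0), on day 3 unsorted (D3), on days 6 and 9 after sorting for the fibroblast surface protein Thy-1 (D6T-, D6T+, D9T-, D9T+), and on days 12 and 16 after sorting for the pluripotency surface antigen SSEA-1 (D12S+, D12S-, D16S+, D16S-). Fully reprogrammed iPSCs followed, and the mouse embryonic stem cell line ESD3 was the pluripotent reference; neither was sorted. Thy-1 negative and SSEA-1 positive cells are called the successful route and the opposite fractions the unsuccessful route, as the study names them; a sorted fraction is a population on the way and not pure iPSCs. In a separate conversion, MEFs received Scl, Lmo2, Runx1 and Bmi1 (SLBR), and were taken before induction (MEF), on day 4 (D4), and after conversion to hematopoietic cells and sorting for the surface receptor cKit (cKit+, cKit-); per the study's methods these cells shared their culture with OP9 stromal cells. H3.3 was measured in all 16 of these populations, H3K4me3 and H3K36me3 in D0, D3, D6T-, D9T-, D12S+, D16S+ and iPSCs, each as 1 library. No replicate check, SD or test was therefore possible, and every difference given here is between libraries.

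H3.3 is a variant of histone H3 that is placed in chromatin outside DNA replication, at active promoters, along transcribed genes and at enhancers. H3K4me3 marks active promoters, and H3K36me3 marks the bodies of transcribed genes. Nanog encodes a homeodomain transcription factor that holds cells in the pluripotent state, Dppa3 (Stella) encodes a germ line and early embryo protein that protects DNA methylation at imprinted genes, and Gdf3 encodes a secreted ligand of the TGF-beta family. Slc2a3 encodes the glucose transporter GLUT3 and Apobec1 an RNA-editing cytidine deaminase. In embryonic stem cells the stretches around Nanog are known as a group of enhancers.

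The positions below are given in kb from the annotated start of Nanog, at base 122657507 of chromosome 6 in mm9, with negative values upstream. Apobec1 (ENSMUSG00000040613) lies at chr6:122527810-122552462 on the minus strand, Gdf3 (ENSMUSG00000030117) at chr6:122555421-122560105 on the minus strand, and Dppa3 (ENSMUSG00000046323) at chr6:122576428-122580290 on the plus strand. Nanog (ENSMUSG00000012396) spans chr6:122657507-122664651 on the plus strand. Slc2a3 (ENSMUSG00000003153) is annotated over chr6:122677827-122751658 on the minus strand, because a long transcript starts at 94.2 kb, while the main transcript starts at 35.3 kb and covers 14.9 kb of the 73.8 kb.

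The sequences that the results turn on are the start regions of Nanog and Apobec1, which behaved in opposite ways, and the centres of 2 stretches that carried H3.3 in most reprogramming libraries. The Nanog start region is the 250 bases before the RefSeq start (GRCm38.p6, chr6:122707239-122707488, plus strand), and the capitals mark an Oct4-Sox2 composite site on the minus strand. The Apobec1 start region is the 250 bases before its RefSeq start (GRCm38.p6, chr6:122602445-122602694, minus strand), and the capitals mark GGGTGTGG, letters bound by Klf factors.
Nanog start region: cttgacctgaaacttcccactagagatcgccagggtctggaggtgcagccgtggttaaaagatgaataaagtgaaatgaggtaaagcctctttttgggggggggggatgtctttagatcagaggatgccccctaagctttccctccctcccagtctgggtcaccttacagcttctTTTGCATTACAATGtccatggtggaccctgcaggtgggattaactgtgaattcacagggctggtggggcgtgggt
Apobec1 start region: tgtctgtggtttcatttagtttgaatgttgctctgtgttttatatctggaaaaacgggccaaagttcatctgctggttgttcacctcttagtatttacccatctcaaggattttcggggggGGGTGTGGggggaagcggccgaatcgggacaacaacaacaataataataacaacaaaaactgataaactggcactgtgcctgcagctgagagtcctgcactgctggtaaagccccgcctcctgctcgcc
The H3.3 stretch at -3.75 kb is intergenic, and its central 300 bases are shown (mm9, chr6:122653850-122654149, plus strand), and the capitals mark an AP-1 site, TGANTCA. The stretch at 58.2 kb lies in the upstream part of Slc2a3 (mm9, chr6:122715850-122716149, plus strand) and held none of the letters searched.
Stretch at -3.75 kb: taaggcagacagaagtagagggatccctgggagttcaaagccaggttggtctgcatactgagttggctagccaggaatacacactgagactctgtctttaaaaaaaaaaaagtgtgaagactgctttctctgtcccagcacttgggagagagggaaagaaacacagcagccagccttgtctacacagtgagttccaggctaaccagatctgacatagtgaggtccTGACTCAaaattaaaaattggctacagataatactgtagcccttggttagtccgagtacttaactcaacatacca
Stretch at 58.2 kb: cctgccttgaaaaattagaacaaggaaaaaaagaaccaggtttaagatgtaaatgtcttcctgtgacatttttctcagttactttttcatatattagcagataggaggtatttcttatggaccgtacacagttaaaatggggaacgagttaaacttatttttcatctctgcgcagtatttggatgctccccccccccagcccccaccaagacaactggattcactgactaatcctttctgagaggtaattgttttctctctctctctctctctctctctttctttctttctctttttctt

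Letters were searched on both strands for 6 motifs. The composite joins the Sox letters CATTGT, any base and ATGCAAA, which is the octamer ATGCAAAT without its last letter. A composite is therefore also a CATTGT match, but it need not hold the octamer. The composite occurred once in the locus, from base 122657432 to base 122657445, and this site lay under an H3.3 peak in 5 of the 12 reprogramming libraries. It was in 2 of 32851 RefSeq promoter windows of 300 bases (0.00609%), both of them entries for Nanog; the letters were chosen with the known consensus in mind, so the low share is no result. The letters GGGTGTGG occurred in 3.56% of the promoter windows and TGANTCA in 7.81%, against 3.45% and 9.00% of windows at the centres of iPSC H3.3 peaks. The octamer ATGCAAAT was in 1.74% of promoter windows, CATTGT in 12.6% and TCAAGGTCA, the letters of Esrrb, in 0.423%. A match of letters is a description and not a binding site.

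H3.3 spread over the locus along the successful route, and the later unsuccessful fractions also had more of it than D0. The score of a peak is its tag count scaled to 10 M tags of the library, and scores were summed. The sum over the locus was 188 (95% counting interval 172 to 205) in D0 and 101 in D3. Along the successful route D6T- had 329, D9T- 599, D12S+ 797 and D16S+ 1014. It reached 1193 (1160 to 1227) in iPSCs and 1112 (1068 to 1157) in ESD3. Each library after D3 on this route was thus above the one before it, and iPSCs and ESD3 were the highest of the 16 libraries. Peaks numbered 12 in D0, 41 in iPSCs and 34 in ESD3, and they covered 4.62%, 39.1% and 26.7% of the locus. On chromosomes 1 to 19 and X as a whole the covered share was 4.93% in D0, 4.04% in iPSCs and 1.83% in ESD3, so the locus went from about the genome's share to far above it. On the log2 scale the iPSC sum exceeded the D0 sum by 2.66 (2.53 to 2.80, counting error only). Intergenic peaks held between 14.0% and 30.8% of the score in the 12 reprogramming libraries.

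The rise in the sum did not hold for the peaks of high fold over input alone, whereas with an equal number of peaks per library, taken by score, the log2 ratio was 2.86. The iPSC peaks of the locus were broad and shallow, with a median fold over input of 3.06 against 4.45 in D0 (all peaks of the libraries, 3.25 and 4.13). Only 4 of the 41 iPSC peaks had a fold of at least 4, against 8 of 12 in D0, 11 of 26 in D16S+ and 16 of 34 in ESD3. Over all peaks of each library that share was also lowest in iPSCs among these 4, at 22.6%, against 55.1% in D0, 64.0% in D16S+ and 59.6% in ESD3. With peaks of at least 4-fold alone, the log2 ratio of iPSCs to D0 became -1.58.

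**Figure D1:**
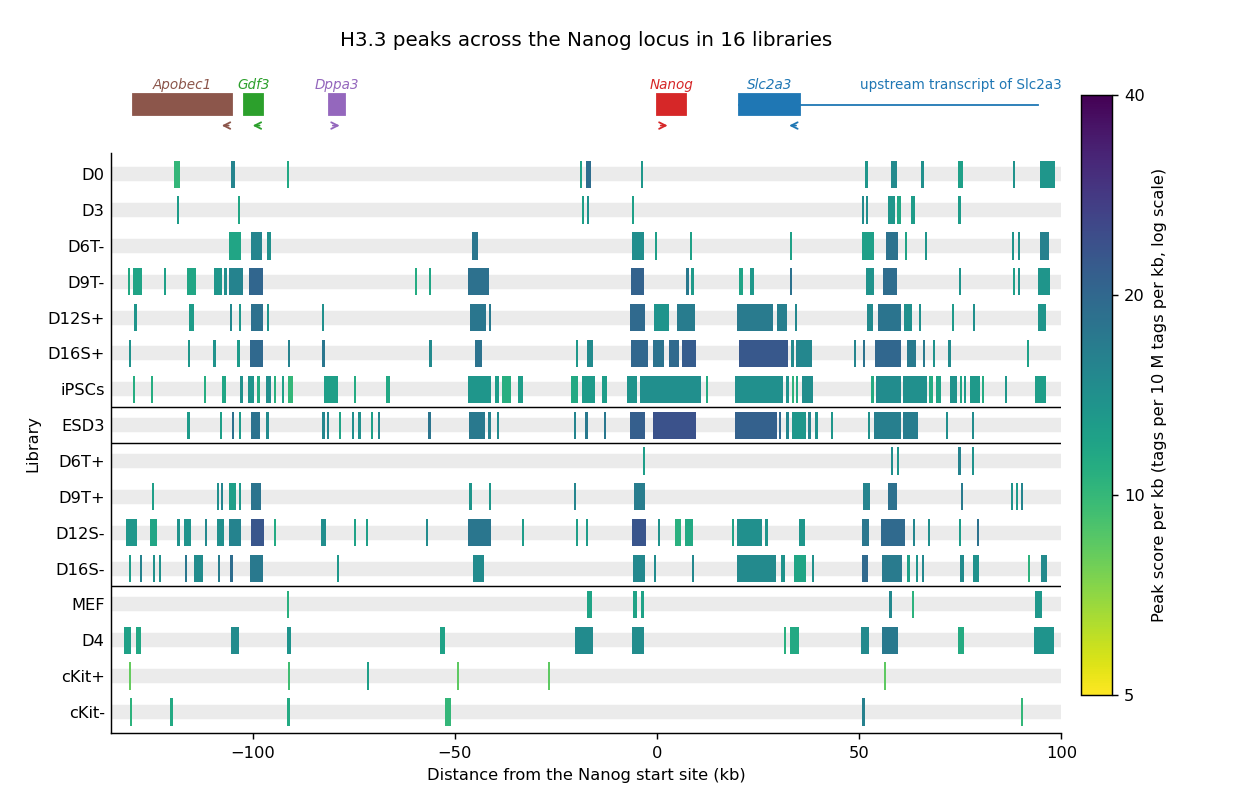
Each row is 1 H3.3 library and each block 1 peak, placed by its distance in kb from the Nanog start and coloured by its score per kb on a log scale; genes and the direction of transcription are drawn above. D0 has 12 peaks and none on Nanog, whereas the iPSC row holds 41 peaks and a single peak of 15.2 kb across Nanog.

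**Figure D2:**
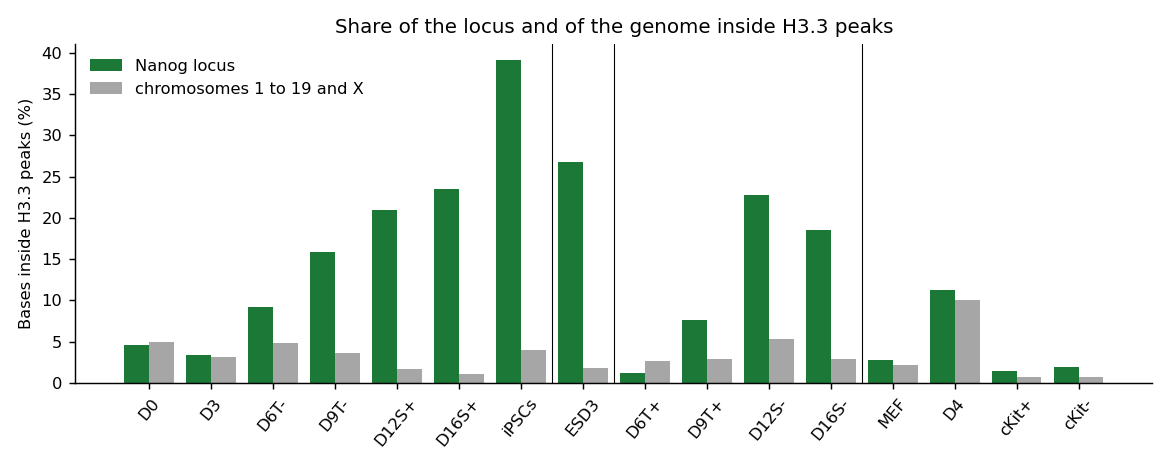
Bars give the percentage of bases inside H3.3 peaks in the locus (green) and on chromosomes 1 to 19 and X (grey) for the 16 libraries. The locus exceeds the genome in every library but D0 and D6T+, and iPSCs are highest at 39.1%.

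Libraries differed in depth and in how much of it lay in peaks, which bears on every level below. H3.3 libraries held 18.7 to 91.8 M tags and 25637 to 108179 peaks, with 1.65% to 37.2% of tags inside peaks; H3K4me3 libraries held 15.8 to 35.4 M tags with 3.71% to 34.8% in peaks, and H3K36me3 libraries 13.2 to 25.4 M tags with 1.07% to 42.4%. Marker genes matched the labels of the end points: all 6 fibroblast markers (Col1a1, Col1a2, Col3a1, Thy1, Twist2, Prrx1) had H3.3 peaks in D0 (summed score 3506), 1 of 6 in iPSCs (29.97) and 0 of 6 in ESD3, while all 6 pluripotency markers had peaks in iPSCs (6647) and ESD3 (1201), and 4 of 6 had them in D0 with a summed score of 74.9; of all genes, 61.8% had a peak in D0, 61.1% in iPSCs and 52.1% in ESD3. Pou5f1, which was also delivered as a transgene, held 5742 of the iPSC sum of the pluripotency markers and 178 of the ESD3 sum. The 2 sums are therefore not compared. All 6 fibroblast markers had peaks in the 4 unsuccessful fractions, with sums from 471 in D16S- to 1719 in D6T+, against 12.8 in D16S+ to 893 in D6T- on the successful route. The cKit+ library did not stand out for hematopoietic markers: 4 of 6 had a peak, with a sum of 28.0, beside 4 of 6 fibroblast markers with a sum of 167, and Ptprc and Kit had none. In mixed populations, more cells with a mark and more mark per cell cannot be told apart. The part of depth and of fibroblast markers in the results was not tested.

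Nanog itself had no H3.3 peak in D0 or D3. A single peak of 0.5 kb lay over its start in D6T- (6.24), and a peak of the same length lay just past its 3′ end in D9T- (8.65). D12S+ had a score of 120.9 (107 to 136), D16S+ 177 (159 to 197), iPSCs 218 (204 to 233) and ESD3 250 (229 to 272). The step from D9T- to D12S+ was far outside counting error, and the intervals of iPSCs and ESD3 overlapped. The shape of the peaks changed with the level. In D12S+, 2 peaks covered -0.687 to 2.83 kb and 4.94 to 9.28 kb, in D16S+ there were 3, and in ESD3 1 peak of 10.5 kb ran from -0.915 to 9.63 kb at a fold over input of 4.08. In iPSCs 1 peak of 15.2 kb ran from -4.31 to 10.9 kb at a fold of 2.95, so part of its score belongs to the intergenic stretch upstream.

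Per kb of window, with each peak's score shared out by overlap, Nanog was the densest member in D16S+, iPSCs and ESD3. Its H3.3 density was 14.3 per kb in iPSCs (100% of the window covered), 23.5 in ESD3 and 15.7 in D16S+, at or above the 99.7th percentile of all 22380 genes in iPSCs and ESD3. In iPSCs, Slc2a3 followed at 7.14 per kb, Gdf3 at 6.99 and Dppa3 at 6.55, which lay close together, and Apobec1 was lowest at 1.05. In D0 the order was different: Apobec1 had 1.18 and Slc2a3 0.902 per kb, and the other members had no peak.

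Gdf3 gained H3.3 ahead of Nanog. It had no peak in D0, and the only D3 peak (5.81) overlapped its window at the far 3′ side. D6T- had a score of 90.8 (80.2 to 102), D9T- 121 (110 to 134), D12S+ 74.0, D16S+ 61.1, iPSCs 63.0 (55.5 to 71.1) and ESD3 54.6. In D6T-, D9T- and D12S- a peak between Apobec1 and Gdf3 lay in both windows and was counted for both. Without this shared peak Gdf3 stood at 55.7 in D6T- and 69.7 in D9T-, so that its day 9 value was then below that of D12S+, which has no shared peak, and the gene was no longer highest on day 9. The core of its H3.3 was a stretch over the 5′ part of the gene, from -100.5 to -97.7 kb, where D6T- had 41.5, D9T- 57.0, D12S+ 51.8, D16S+ 55.6, iPSCs 22.1 and ESD3 38.9.

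On the successful route Dppa3 was the last member with an H3.3 peak. No peak lay on it in D0, D3, D6T-, D9T- or D12S+. D16S+ had a score of 16.3 (11.2 to 23.5), iPSCs 42.2 (36.2 to 49.1) and ESD3 15.7 (10.9 to 22.0). The D16S+ peak ran from -82.9 to -82.0 kb and only touched the window, so that its density inside was 0.239 per kb. The iPSC peak was different in place, from -82.4 to -79.0 kb, over the start and the first part of the gene. Near-identical copies of the Dppa3 transcript exist at 2 other places in mm9, and 1 of them matched 98.1% of its bases at 97.7% identity; Nanog has 1 such copy, over 71.8% of its bases. Since the authors removed reads that map to more than a single place, tags in the exons of both genes may be undercounted.

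Slc2a3 carried H3.3 in all 12 reprogramming libraries and had the highest sum of the members in each of them; its window is also the longest. Its score was 112 (99.4 to 125) in D0 and 69.0 in D3, and then D6T- had 161, D9T- 187, D12S+ 408, D16S+ 561 (528 to 596), iPSCs 557 (534 to 580) and ESD3 509 (480 to 540). The glucose transporter gene had 2 parts that behaved differently. On the main transcript D0 and D3 had no peak, D6T- had a score of 6.07, D9T- 34.4, D12S+ 192, D16S+ 298.98, iPSCs 175 and ESD3 243. Like Nanog, it thus had its largest step between D9T- and D12S+. On day 12 the main transcript and Nanog were both lower in the unsuccessful fraction. The main transcript had 91.0 in D12S- against 192 in D12S+, and Nanog 46.8 against 120.9. On day 16 they differed: the main transcript had 168 in D16S- against 298.98 in D16S+, and Nanog 7.32 against 177. The main transcript values are shared out by overlap without a flank, whereas the Nanog values are whole peaks with a 1 kb flank. In the upstream part, between 36.3 and 95.2 kb, the Slc2a3 score was already 68.4 in D0 and 69.0 in D3. It was then 125 in both day 6 and day 9 Thy-1 negative cells, and D12S+ had 191, D16S+ 246, iPSCs 347 and ESD3 230. The fibroblast H3.3 assigned to Slc2a3 thus lay outside its main transcript.

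Apobec1 did not follow the others. Its score was 31.5 (25.2 to 39.0) in D0 and 6.39 in D3, while D6T- had 35.1, D9T- 148.9 (136 to 163), D12S+ 34.9, D16S+ 23.5, iPSCs 28.1 (23.3 to 33.8) and ESD3 25.7. D0, iPSCs and ESD3 had overlapping intervals, and the only high library on the successful route was D9T-, where 7 peaks covered parts of the gene. In D9T- the shared peak held 51.7 of the score, and 97.2 remained without it. At the start region printed above, the H3.3 score within 1 kb of the start was 16.1 in D0, and D6T- had 20.1, D9T- 27.2, D12S+ 7.55 and ESD3 9.25, and no peak was present in D3, D16S+ or iPSCs.

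**Figure D3:**
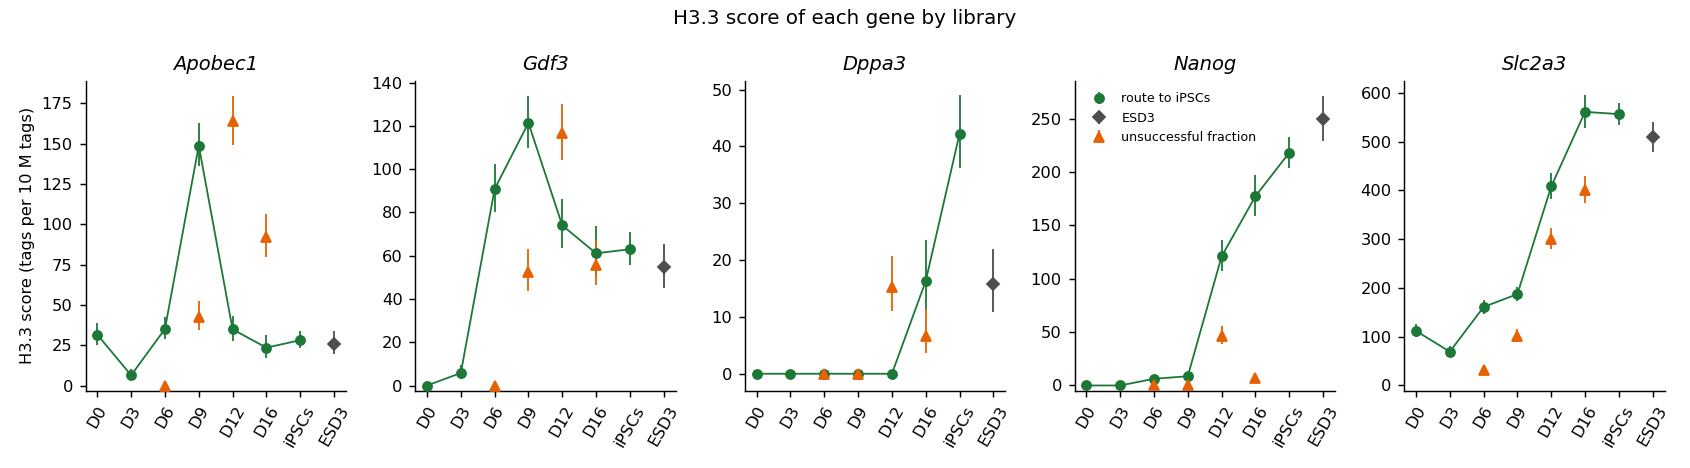
H3.3 score of each gene (tags per 10 M, linear axes that differ between panels) by day, with bars for the 95% counting interval and 1 library per point; a point at 0 means that no peak was called. Nanog and Slc2a3 climb along the route, Apobec1 is highest on day 9, Gdf3 is highest there only with the peak it shares with Apobec1 (69.7 without it, below 74.0 in D12S+), and Dppa3 is above 0 only from D16S+ on that route.

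Between the end points, 4 of the 5 members were higher in iPSCs than in D0, against 14.8% of all genes. Higher means at least 2-fold, a gene with no peak being set at the lowest peak score of the libraries compared (4.37 here). Nanog, Gdf3 and Dppa3 had no D0 peak, so no fold is given for them, and Slc2a3 was 4.99-fold higher. Apobec1 was neither higher nor lower, at 0.892 of its D0 score. With peaks of at least 4-fold over input alone the count was 0, and Slc2a3 turned to a log2 ratio of -1.96. Other pluripotency factors behaved similarly, 16 of 20 being higher and 0 lower, for example Zfp42 from no peak to 99.4, Esrrb from 24.8 to 571 and Dppa2 from no peak to 120; the list holds Pou5f1, Sox2 and Klf4, which were also delivered as transgenes. The median log2 ratio of the list, at the floor, was 4.16, beside 3.27 for the 5 members. Of the 11 protein-coding genes within 250 kb of the locus, 6 were higher and 3 lower. Clec4a4 went from no peak to 46.2 and Necap1 from 23.6 to 58.8, whereas Mfap5, a microfibril gene of connective tissue, went from 67.1 to 14.6.

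The sorted fractions were compared on each day, and the members that differed were not the same on all 4 days. On day 6, H3.3 was higher in D6T- than in D6T+ for 3 members, Apobec1, Gdf3 and Slc2a3, against 30.1% of all genes. D6T+ had no peak on Apobec1, Gdf3, Dppa3 or Nanog, and Slc2a3 stood at 31.9 there against 161 in D6T-. Fewer genes overall had a peak in D6T+ (53.1%) than in D6T- (60.6%). On day 9, 2 members were higher in D9T-, against 14.6% of all genes: Apobec1 at 148.9 against 42.5 and Gdf3 at 121 against 52.6. With each peak given to 1 member alone, 1 member was higher. Nanog had 8.65 in D9T- and no peak in D9T+, which is within 2-fold of the lowest peak score.

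On day 12, Nanog was higher in D12S+ (120.9, 107 to 136) than in D12S- (46.8, 39.1 to 55.7), a ratio of 2.59, against 1.16% of all genes. Apobec1 and Dppa3 were lower, against 48.8% of all genes: Apobec1 had 34.9 in D12S+ and 164 in D12S-, a call that was lost as a share of tags in peaks and with a higher limit on fold over input, and Dppa3 had no peak in D12S+ and 15.2 in D12S-, where the peak only touched its window. Gdf3 stood at 74.0 against 117 and Slc2a3 at 408 against 301, both within 2-fold. The D12S- values of Apobec1 and Gdf3 both hold the peak that these genes share (44.1). Without it, D12S- had 119.8 for Apobec1 and 72.5 for Gdf3. The D12S- library was thus not without H3.3 in the locus, whose sum was 834 there and 797 in D12S+. With a limit of 4-fold over input the Nanog log2 ratio turned to -2.25.

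On day 16, Nanog had 177 (159 to 197) in D16S+ and 7.32 (4.10 to 12.1) in D16S-, a ratio of 24.2. Dppa3 stood at 16.3 against 6.59, and these were the 2 members called higher, against 3.53% of all genes. Dppa3 rests on the peak at the window edge: counted in proportion to overlap, its log2 ratio was -0.31. Apobec1 was lower, at 23.5 against 92.2, which 37.4% of all genes also were. This call was lost with a 5 kb flank, with an equal number of top peaks, as a share of tags in peaks and with a 4-fold limit. Gdf3 (61.1 against 55.9) and Slc2a3 (561 against 401) were within 2-fold. At a limit of 4-fold over input the Nanog log2 ratio became -0.46, since none of its D16S+ peaks exceeded a fold of 3.69. Of the 20 pluripotency factors, 12 were higher in D16S+ and 2 lower.

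At 4 of the 5 members iPSCs and ESD3 were within 2-fold of each other. Only Dppa3 was higher in iPSCs (42.2 against 15.7), against 31.8% of all genes. Nanog had a ratio of 0.873, Slc2a3 of 1.09, Gdf3 of 1.15 and Apobec1 of 1.09. With peaks of at least 4-fold over input alone, Apobec1, Gdf3, Nanog and Slc2a3 were lower in iPSCs, as a share of tags in peaks Nanog was lower, and with an equal number of top peaks Apobec1 was. Because each is 1 library, a ratio near 1 does not show that the cells do not differ.

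Places where H3.3 recurred were picked by a rule. Merging bases that lay under peaks in at least 6 of the 12 reprogramming libraries gave 15 stretches, 4 of them intergenic. Of the 15, 7 had a peak in D0 and 13 in iPSCs. The rule counts these same libraries, so the recurrence is set by it and these counts follow from it in part. The stretches were from 0.04 to 7.30 kb long. The stretch at 58.2 kb, in the upstream part of Slc2a3, held bases that lay under a peak in all 12 libraries, and the stretch at -3.75 kb also had a peak in each of the 12. The H3.3 score of the stretch at 58.2 kb was 21.7 in D0 and 34.1 in D3, and D6T- had 53.9, D9T- 65.8, D12S+ 84.5, D16S+ 95.1, iPSCs 69.2 and ESD3 76.4. Of the unsuccessful fractions, D6T+ had 14.0, D9T+ 43.6, D12S- 92.7 and D16S- 80.1, so D12S- and D16S- did not stand below iPSCs there.

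Intergenic H3.3 upstream of Nanog appeared before H3.3 on the gene. The stretch at -3.75 kb (-6.28 to -2.97 kb) had 6.68 in D0 and 6.19 in D3, then D6T- had 39.8, D9T- 62.3, D12S+ 65.1, D16S+ 66.8, iPSCs 37.6 and ESD3 69.8. In D9T- it was thus near its highest level while Nanog had 8.65. The same stretch carried H3.3 in the unsuccessful fractions, where D6T+ had 5.28, D9T+ 47.8, D12S- 76.1 and D16S- 44.9. Within 1 kb of the Nanog start, by contrast, D12S- had 6.95 and D16S- 7.32, whereas D12S+ had 22.9, D16S+ 35.1, iPSCs 28.7 and ESD3 45.4. Over the whole 75.2 kb between Dppa3 and Nanog the H3.3 sum was 39.3 in D0, 152 and 222 in D12S+ and D12S-, 156 and 84.2 in D16S+ and D16S-, 254 for iPSCs and 245 for ESD3.

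At some intergenic sites the presence of H3.3 did not follow the route. A peak near -17 kb, between Dppa3 and Nanog, was present in D0 (26.5), D3, MEF (13.3), D4 (62.4), D16S+, iPSCs (41.4), ESD3 and D12S-, and in no other library. A peak near -91 kb, between Gdf3 and Dppa3, was present in all 4 transdifferentiation libraries, with scores from 5.35 to 14.0, and in 3 of 12 reprogramming libraries, D0, D16S+ and iPSCs. Both sites were singled out after their values were seen.

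H3K4me3 was first called on Nanog and Gdf3 in D9T-. Nanog had no H3K4me3 peak in D0, D3 or D6T-, and then D9T- had 67.7 (58.7 to 77.4), D12S+ 153 (139 to 169), D16S+ 147 (128 to 167) and iPSCs 263 (246 to 280). The D9T- peak ran from 0.033 to 2.49 kb, just inside the gene, in the library in which H3.3 had no peak within 1 kb of the start. By D12S+ the mark extended from -1.06 to 3.98 kb and in iPSCs from -2.40 to 6.07 kb. Gdf3 followed the same calendar, with no peak through D6T- and with 92.4 for D9T-, 82.0 for D12S+, 30.7 for D16S+ and 144 for iPSCs, although its H3.3 was already high in D6T-.

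Dppa3 and Slc2a3 had H3K4me3 already in D0. The Dppa3 peak lay at about the same place inside the gene in D0 (10.4), D6T- (15.2), D9T- (10.6), D12S+ (27.5) and iPSCs (32.6), and none was called in D3 or D16S+. Slc2a3 had 354 (333 to 377) in D0 and 224 in D3, and D6T- had 373, D9T- 327, D12S+ 287, D16S+ 218 and iPSCs 434 (412 to 456). In D0 this came from a peak at the main start (113), one at the upstream start (103) and one at 58.2 kb (104). The main start kept its mark, with 194 in the corresponding iPSC peak, while the upstream start had 52.1 in iPSCs. On the main transcript, D0 thus carried H3K4me3 at the start but no H3.3 peak.

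Apobec1 had most of its H3K4me3 early on the route, with 128 (115 to 142) in D0, 83.1 in D3, 174 in D6T- and 246 (229 to 265) in D9T-, whereas D12S+ had 67.0, D16S+ 9.80 and iPSCs 27.3 (22.0 to 33.1). The D9T- value was the highest and the D16S+ value the lowest. Between the end points, 3 members were higher in iPSCs than D0 for H3K4me3, Nanog, Gdf3 and Dppa3 (3.13-fold), against 3.01% of all genes. Apobec1 was lower, at 0.213 of its D0 score, against 51.3% of all genes, and Slc2a3 had a ratio of 1.22. With a 5 kb flank the Apobec1 window took in the Gdf3 promoter and its log2 ratio turned to 0.42. As a share of tags in peaks, 4 members were higher, with Slc2a3 added, and Apobec1 was no longer lower. The iPSC library had 12.7% of its tags in peaks against 30.4% in D0. Among the 20 pluripotency factors, 14 were higher and 1 lower. In iPSCs the H3K4me3 density was 24.0 per kb on Nanog, 21.6 on Gdf3, 5.64 on Slc2a3, 5.56 on Dppa3 and 1.02 on Apobec1.

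The stretches at -3.75 and 58.2 kb carried H3K4me3 in fibroblasts and little or none in D12S+ and D16S+, where their H3.3 was high. At the first of them H3K4me3 was 54.1 in D0, 36.4 in D3, 50.0 in D6T- and 44.7 in D9T-, and it was not called in D12S+ or D16S+, where H3.3 was 65.1 and 66.8, before 20.3 in iPSCs. At 58.2 kb it was 104 in D0 and 56.5 in D3, and D6T- had 101, D9T- 69.7, D12S+ 22.4, D16S+ 10.1 and iPSCs 69.7. An H3K4me3 peak near -38 kb, singled out after its values were seen, had 47.2 in D0 and 25.5 in D3. D6T- had 46.7, D9T- 32.8, D12S+ 12.6 and iPSCs 21.3, and none was called in D16S+. Along the successful route an H3.3 peak overlapped this site in iPSCs alone (24.2, from -38.4 to -36.2 kb). The D12S+ and D16S+ libraries had fewer tags in peaks (9.27% and 3.71%) than D0 (30.4%), and the part of this in the lower distal values was not tested; Nanog had its mark in both.

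**Figure D4:**
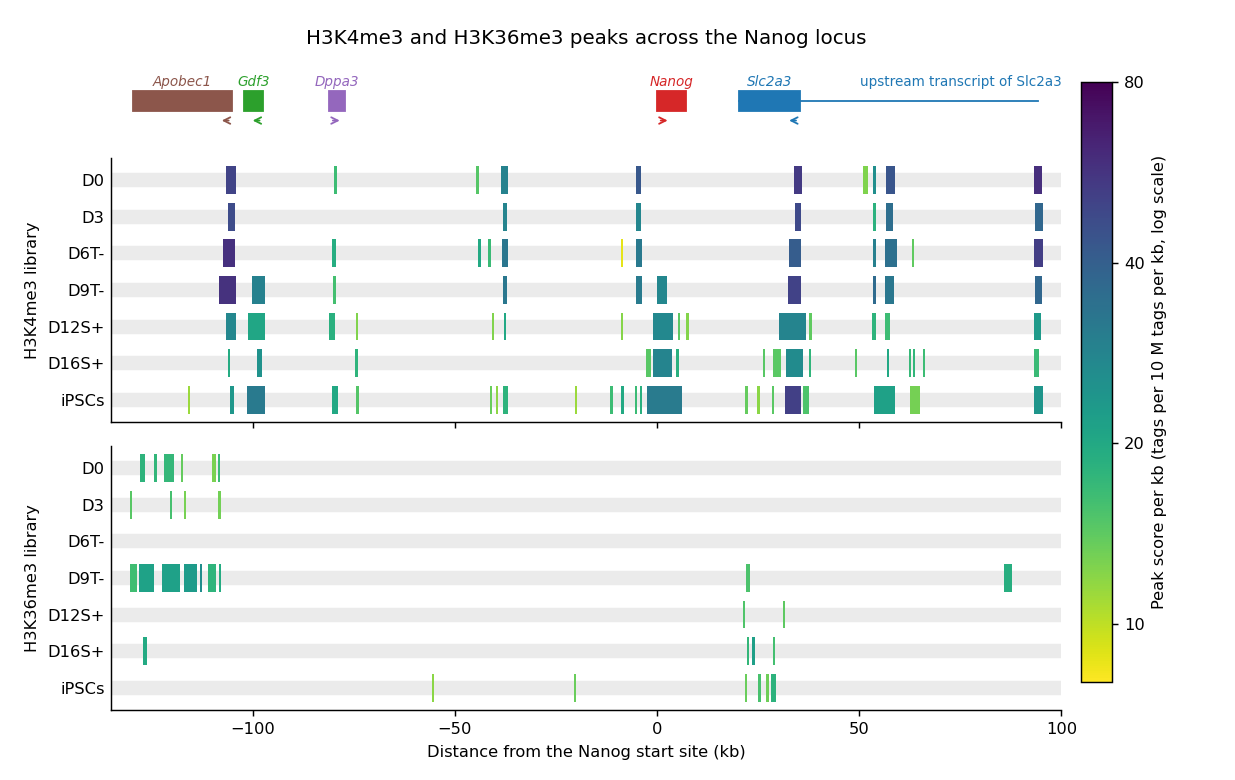
Each row is 1 H3K4me3 (upper panel) or H3K36me3 (lower panel) library and each block 1 peak, by distance in kb from the Nanog start, coloured by score per kb on a log scale. H3K4me3 appears over Gdf3 and Nanog from D9T- on, and H3K36me3 lies on Apobec1 in D0, D3, D9T- and D16S+ and on Slc2a3 from D9T- on, with no peak in D6T-.

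**Figure D5:**
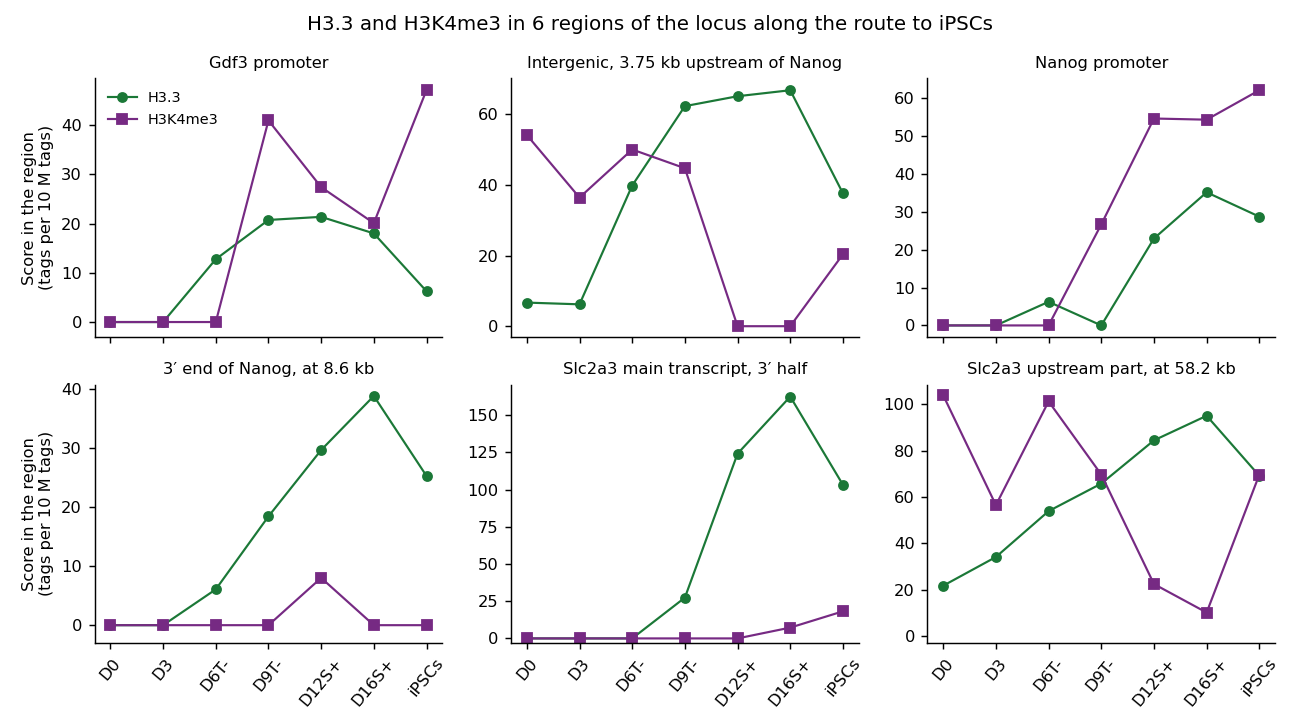
Score (tags per 10 M, linear axes from 0 that differ between panels) of H3.3 (green) and H3K4me3 (purple) in 6 regions of the locus along the successful route, 1 library per point. In the panels at 3.75 kb upstream of Nanog and at 58.2 kb, H3.3 rises to D16S+ while H3K4me3 is low in D12S+ and D16S+, and in the Gdf3 promoter H3.3 is present in D6T-, before H3K4me3.

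H3K36me3 was found on 2 of the 5 members. Apobec1 had 102 (90.3 to 116) in D0, 32.3 in D3, 342 (318 to 367) in D9T- and 18.2 in D16S+, and no peak in D6T-, D12S+ or iPSCs. Slc2a3 had no peak in D0, D3 or D6T-. It then had 53.2 for D9T-, 14.6 for D12S+, 33.8 for D16S+ and 51.2 (42.5 to 60.9) for iPSCs. Of the D9T- score, 38.9 lay in the upstream part and 14.3 on the main transcript. D12S+, D16S+ and iPSCs had no H3K36me3 peak in the upstream part. In iPSCs the peaks lay between 21.8 and 29.5 kb in the 3′ part of the main transcript. Nanog, Gdf3 and Dppa3 had no H3K36me3 peak in any of the 7 libraries. Of all genes, from 23.5% (D12S+) to 50.3% (D9T-) had one in a given library, so a missing peak was common among all genes. Between the end points 1 member, Slc2a3, was higher in iPSCs than D0, against 1.72% of all genes, and 1, Apobec1, was lower, against 44.6% of all genes. The lower call was lost with an equal number of top peaks and with a higher limit on fold over input, and the iPSC library had 2.88% of its tags in peaks against 31.3% in D0. The D6T- library had no H3K36me3 peak in the whole locus, and its fragment length of 444 bp stood apart from 120 to 158 bp in the other 6. On Apobec1 the scores of all 3 marks were highest in D9T- among the libraries of the route. The D9T- library of H3K36me3 also had the highest share of tags in peaks for that mark, 42.4%, against 1.99% in D16S+. The part of this in the Apobec1 values was not tested.

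In transdifferentiation Nanog, Gdf3 and Dppa3 had no peak in MEF, D4, cKit+ or cKit-. Of all genes, 53.2% had an H3.3 peak in MEF, 72.1% in D4, 33.2% in cKit+ and 31.8% in cKit-. Apobec1 had no peak in MEF, 64.6 in D4, 4.09 in cKit+ and 14.0 in cKit-, and Slc2a3 had 39.1, 212, 4.20 and 16.1. D4, which also had the most peaks and the highest share of tags in peaks of all H3.3 libraries, was the high library for both. No member was higher in cKit+ than MEF, against 3.29% of all genes, and Slc2a3 was lower (0.108 of its MEF score), against 37.9% of all genes. The locus sum was 76.8 in MEF, 412 in D4, 28.8 in cKit+ and 51.1 in cKit-, so that D4 stood above D0, D3 and D6T- and the other 3 libraries below D3. With 28076 peaks and no locus peak above a fold of 2.23, cKit+ was a weak library, and fewer peaks on these genes cannot be told apart from weaker enrichment.

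Across the 12 reprogramming libraries, the 5 genes outside chromosome 6 with H3.3 most like Nanog were Wbscr27, Cdh1, Slc35f2 (Pearson r of log2(score + 1) 0.96 each), Rdh16 and Mybl2 (0.95 each). Cdh1, the epithelial cadherin E-cadherin, had 42.7 in D0 and 755 in iPSCs. Among the other members, Slc2a3 had r = 0.90, Dppa3 0.76, Gdf3 0.64 and Apobec1 0.34, which placed them at percentiles 99.8, 98.2, 95.9 and 83.4 of 17241 genes with a peak. These values are descriptive, since the 12 libraries share a course of conversion, depth differences and no replicates.

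The study also measured the locus with ChIP primers, whose sequences show which bases those assays read. The pair for Nanog spans 170 bases (mm9, chr6:122657241-122657410), upstream of the start and beside the composite site, and the pair for Slc2a3 spans 204 bases (mm9, chr6:122680046-122680249) near the 3′ end of the main transcript. Each primer matched mm9 once.
Nanog forward primer: aaactcagatcccccacttgacctg
Nanog reverse primer: actgggagggagggaaagcttaggg
Slc2a3 forward primer: gcaatgtcctcgaaagtcctgcctt
Slc2a3 reverse primer: ggctcccctcacatttatgaacact
The Nanog amplicon lay wholly inside an H3.3 peak in 5 of 16 libraries, D6T-, D12S+, D16S+, iPSCs and ESD3, and inside an H3K4me3 peak in 3 of 7. The Slc2a3 amplicon lay inside an H3.3 peak in 6 of 16 libraries, D12S+, D16S+, iPSCs, ESD3, D12S- and D16S-. The amplicons thus differed in the late unsuccessful fractions, which had the peak on Slc2a3 and not on the Nanog amplicon. This difference rests on peak edges, since the Nanog amplicon runs from -0.266 to -0.097 kb. A small H3.3 peak ended at -0.298 kb in D16S- (7.32), and another began at 0.156 kb in D12S- (6.95).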

How the data were processed

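ChIP-Seq peak lists of 30 libraries were analysed: 16 of H3.3, 7 of H3K4me3 and 7 of H3K36me3, out of 46 samples; the other 16 were inputs, which enter through the peak lists alone. The authors mapped reads to mm9 with STAR, dropped reads without a unique position, and called peaks with HOMER findPeaks (histone style) per library against an input, without pooling. Versions were not given in the sources used here. The main value is a signal that the authors deposited, the normalized tag count of a peak per 10 M tags; it is neither per length nor net of input. The deposited lists also give a ratio, the fold over input, at least 2 for H3.3 and at least 4 for the other marks. The p-value and the peak score of HOMER in the deposited lists were not used for any result.

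Scores of peaks overlapping a gene with a 1 kb flank were summed for all 22380 protein-coding genes of GENCODE vM1. Intervals are 95% exact Poisson intervals on tags and cover counting error only. Higher or lower means at least 2-fold, with genes without a peak set at the lowest peak score of the compared libraries; a missing peak says only that the calling limits were not passed. Values within a region assume that a peak's tags are spread evenly over its length. All 5 genes were described in all libraries, with every protein-coding gene within 250 kb, a list of 20 pluripotency factors, marker lists, and the 5 genes outside chromosome 6 most correlated with Nanog. The members and lists were chosen with earlier results of these data known. Tfcp2l1 and Spi1 were matched by their older symbols Tcfcp2l1 and Sfpi1. With 1 library per group no test was possible. Some items are not reported here. The scripts were tested on simulated data. Alternatives were 9 planned and 2 added after the data were seen. Promoter sequences came from RefSeq (GRCm38.p6), which matched 2 of the 5 genes, Nanog and Apobec1; the other sequences came from mm9, the build of the peaks. Copies of transcripts were sought with BLAST 2.17.0 (at least 90% identity over at least 50% of a transcript). Calculations used Python 3.11.15, numpy 2.4.6, pandas 2.3.3 and scipy 1.17.1.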

Additional observations from a re-analysis of the deposited data

Results flagged for a closer look

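For Apobec1 the H3.3 contrast between the successful and the unsuccessful fraction was positive on days 6 and 9 and negative on days 12 and 16, with a gap of 5.08 on the log2 scale between the most positive and the most negative day. The day 6 value rests on a peak that Apobec1 shares with Gdf3. For Dppa3 the contrast was negative on day 12 and positive on day 16, with a gap of 2.93, and both days rest on a peak that only touches its window. With 1 library per fraction, the difference between days was not tested for either gene.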

How the results depend on the processing

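Of 115 values of the main results under an alternative, 82 stayed close (a count within 1.5 times the main count, the locus ratio within its counting interval), 32 moved and 1 reversed. No paired analysis was possible because each group had 1 library. The limit on fold over input (at least 4 for H3.3 and 8 for the other marks) had the widest effect: members with an H3.3 peak in iPSCs went from 5 to 1, higher in iPSCs than D0 from 4 to 0, on day 6 from 3 to 1, on day 9 from 2 to 0, on day 12 from 1 to 0, on day 16 from 2 to 0, higher in iPSCs than ESD3 from 1 to 0 (with 4 members lower in place of 0), H3K4me3 from 3 to 0 and H3K36me3 from 1 to 0. The log2 ratio of the locus, iPSCs over D0, turned from 2.66 to -1.58, that of Slc2a3 to -1.96, Apobec1 and Gdf3 on day 9 to -1.69 and -0.53, Nanog on days 12 and 16 to -2.25 and -0.46, Dppa3 on day 16 to -0.31 and Dppa3 in iPSCs over ESD3 to -0.46. This limit leaves 4 of 41 locus peaks for iPSCs and 8 of 12 for D0. The locus ratio was 3.11 with gene bodies alone, 3.02 with scores in proportion to overlap, 2.86 with an equal number of peaks, 3.11 as a share of tags in peaks and 2.48 with input subtracted.

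On day 9 the count was 3, with Slc2a3 added, with an equal number of top peaks and with the main transcript of Slc2a3 alone, 1 with gene bodies alone, in proportion to overlap, as a share of tags in peaks and with each peak given to 1 member, and 0 with a 5 kb flank or a 4-fold limit. On day 12 it was 0 with a 5 kb flank or a 4-fold limit and 3 as a share of tags in peaks. On day 16 it was 1 with gene bodies alone, in proportion to overlap, with a 4-fold limit or a doubled floor, and 4 as a share of tags in peaks. Dppa3 turned to -0.31 on day 16 with gene bodies alone and in proportion to overlap. The count in iPSCs over ESD3 was 0 with a 5 kb flank, as a share of tags in peaks (where Nanog was lower) and with a 4-fold limit, and that in cKit+ over MEF was 1 as a share of tags in peaks. Apobec1 H3K4me3 turned to 0.42 with a 5 kb flank, whose window takes in the Gdf3 peak, and its lower call was also lost as a share of tags in peaks. Other causes were not tested. Limits are 1 library per group, unequal enrichment between libraries, and peak calls in place of tags, so that a signal below the calling limit is listed as none.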

Other observations

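The neighbours of the locus had H3.3 courses of several kinds. Foxj2, a forkhead transcription factor gene, had H3.3 peaks in all 12 reprogramming libraries, with scores from 19.9 in ESD3 to 148 in D12S-, and 125 in iPSCs. Mfap5 had 67.1 in D0, 13.9 in D3 and no peak in D6T-, D9T-, D12S+ or D16S+. Clec4a4, a lectin receptor gene, had no peak in D0, D3, D6T- or D9T- and then 16.9 in D12S+, 22.9 in D16S+, 46.2 in iPSCs and 19.7 in ESD3.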
